A study of Mus musculus with 30 samples.

Results

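Among the regions listed by ChIP-seq 4 h after adipogenic induction of 3T3-L1 cells, 941 were listed for KLF4 together with the nuclear receptors VDR or RXR, or both. These regions were listed for none of the 5 bZIP factors that had a list. They were chosen by the deposited lists: an interval with identical coordinates had to be in the KLF4 list and in the VDR or RXR list, and had to be absent from the lists of ATF2, ATF7, cJun, FOSL2 and JunB. Listing for KLF5 was allowed but not required. Below, bZIP-free stands for absence from these 5 lists only, and binding of bZIP factors without a list is unknown. The 941 regions made up 16.0% of 5875 KLF4 intervals, 20.5% of 4585 KLF4 intervals with a receptor, and were part of 34724 common intervals on chromosomes 1 to 19 and X.

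3T3-L1 is a clonal mouse fibroblast line committed to the fat cell lineage. All libraries came from post-confluent cells harvested 4 h after induction with 4 additions: the synthetic glucocorticoid dexamethasone at 1 μM; 3-isobutyl-1-methylxantine, which raises cyclic AMP, at 0.5 mM; insulin at 1 μg/mL; and FCS at 10%. The labels name no vitamin D compound and no retinoid among the agents added. Each of the 9 factors had 1 library without a replicate, and uninduced cells had no list among those used. The label of the RXR antibody names no isoform, and the KLF5 antibody was a gift from another laboratory. The lists hold positions without heights or read numbers, so the depth is unknown and the labelled cell line could not be checked against marker genes.

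KLF4 and KLF5 are zinc-finger proteins of the Krüppel-like family, which bind GC-rich and CACCC-type elements. In this cell line both are known as early factors of adipogenesis: KLF4 acts on Cebpb, and KLF5 acts on Pparg downstream of C/EBPβ and C/EBPδ. VDR, the vitamin D receptor, binds DNA mainly as a heterodimer with RXR, the retinoid X receptor, which is also the partner of PPARγ, the retinoic acid receptors and the liver X receptors. The bZIP factors cJun, JunB and FOSL2 are subunits of AP-1, and ATF2 and ATF7 bind related cyclic AMP response elements. No genome of the build of the files (mm9) was used here, so that no sequence, motif or gene is given for a region.

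The first question was which other factors completed these regions. KLF5 was listed at 782 of the 941 regions, or 83.1% (95% exact interval 80.6 to 85.4), while 49.3% of all common intervals carried KLF5. Both receptors were listed at 640 regions (68.0%, 64.9 to 71.0), against 22.8% of all common intervals, which include intervals without a receptor. A single receptor was listed at the remaining regions: VDR alone at 155 (16.5%) and RXR alone at 146 (15.5%). The combination of KLF4, KLF5, VDR and RXR was the largest of the 6 classes, with 561 regions (59.6%). KLF4 and KLF5 met RXR alone at 117 regions and VDR alone at 104. Without KLF5, KLF4 was found with both receptors at 79 regions, with VDR alone at 51 and with RXR alone at 29.

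**Figure D1:**
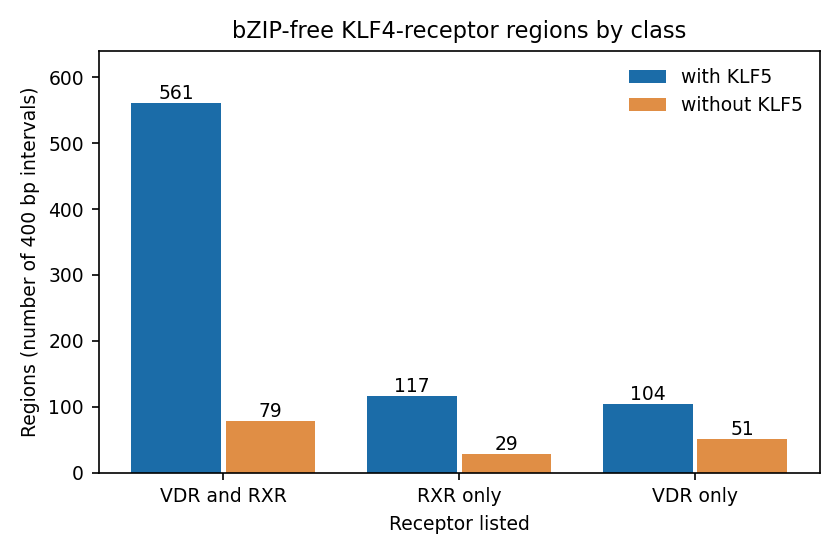
Number of bZIP-free KLF4-receptor regions (y axis, 400 bp intervals) by the receptor listed (x axis), with KLF5 (blue) and without KLF5 (orange). The 561 regions with KLF5 and both receptors outnumber each of the other 5 classes, which hold 29 to 117 regions.

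Taken over the whole KLF4 file, regions with and without KLF5 differed in their receptors. Both receptors were listed at 71.7% of the regions with KLF5 (68.4 to 74.9, n = 782), against 49.7% of those without KLF5 (41.7 to 57.7, n = 159). The difference was 22.1 percentage points (95% jackknife interval 14.0 to 30.1; higher on 18 of 20 chromosomes). This interval, like those of all later differences, came from recomputing the difference with 1 chromosome at a time removed, and a difference passed the threshold where its value adjusted over 22 differences was under 0.05. It covers the spread between chromosomes of the same libraries and not that between cultures. The last of 4 equal parts of the KLF4 file held 80 of the 159 regions without KLF5. There, both receptors were listed at 40.2% of the regions with KLF5 and 41.2% of those without. In each earlier part the share was higher with KLF5, but the exact intervals overlapped in all but the second part. Over the whole file, VDR alone was listed at 13.3% of the regions with KLF5 (11.0 to 15.9) and at 32.1% of those without KLF5 (24.9 to 39.9). RXR alone was listed at 15.0% of the regions with KLF5 (12.5 to 17.7) and at 18.2% of those without (12.6 to 25.1), and these intervals overlapped.

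By receptor, KLF5 was more frequent with both receptors than with VDR alone. It was listed at 87.7% of the regions with both receptors (84.9 to 90.1, n = 640), at 80.1% of those with RXR alone (72.7 to 86.3, n = 146) and at 67.1% of those with VDR alone (59.1 to 74.4, n = 155). The regions with both receptors exceeded those with VDR alone by 20.6 points (12.0 to 29.1; higher on 17 of 20 chromosomes). They exceeded those with RXR alone by 7.52 points, and this difference did not pass the threshold, since its interval held 0 (-0.398 to 15.4); it passed when chromosome 1 or chromosome 9 was left out. Regions with RXR alone exceeded those with VDR alone by 13.0 points (0.885 to 25.2), at the edge of the threshold: leaving out any of 13 of the 20 chromosomes ended this call. It also ended when regions that overlapped a bZIP interval were left out (12.4 points, -0.432 to 25.2), and it was 7.36 points (-4.6 to 19.3) without the last of 4 equal parts of the KLF4 file.

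KLF5 was more frequent at bZIP-free KLF4 intervals with a receptor than at those without one. It was listed at 83.1% of the 941 regions, against 54.2% of 651 bZIP-free KLF4 intervals listed for neither receptor (50.3 to 58.1). The difference was 28.9 points (24.7 to 33.0; higher on 20 of 20 chromosomes). Receptors were less frequent at KLF4 intervals without bZIP, of which 59.1% carried VDR or RXR (56.6 to 61.5, n = 1592), than at KLF4 intervals with bZIP, of which 85.1% did (84.0 to 86.1, n = 4283). The receptors were part of the choice of the regions, and no test was made of these shares.

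The receptor pair was then compared over all 7000 bZIP-free intervals with VDR or RXR, by their KLF factors. Both receptors were listed at 71.7% of the 782 intervals with KLF4 and KLF5, at 49.7% of the 159 with KLF4 and no KLF5, at 48.5% of the 2273 with KLF5 and no KLF4 (46.4 to 50.6), and at 19.7% of the 3786 with neither KLF (18.4 to 21.0). Intervals with KLF4 and KLF5 exceeded those with KLF5 and no KLF4 by 23.3 points (20.3 to 26.2; 20 of 20 chromosomes). Intervals with KLF4 and no KLF5 exceeded those with neither KLF by 30.0 points (22.8 to 37.1; 18 of 20 chromosomes). Taking all 941 KLF4 regions, the excess over the intervals with KLF5 and no KLF4 was 19.5 points (16.5 to 22.6). The sizes of these excesses moved with the KLF4 intervals kept. Without the last of 4 equal parts of the KLF4 file they were 31.6, 38.5 and 29.1 points (26.1 to 32.2 for the last of them).

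**Figure D2:**
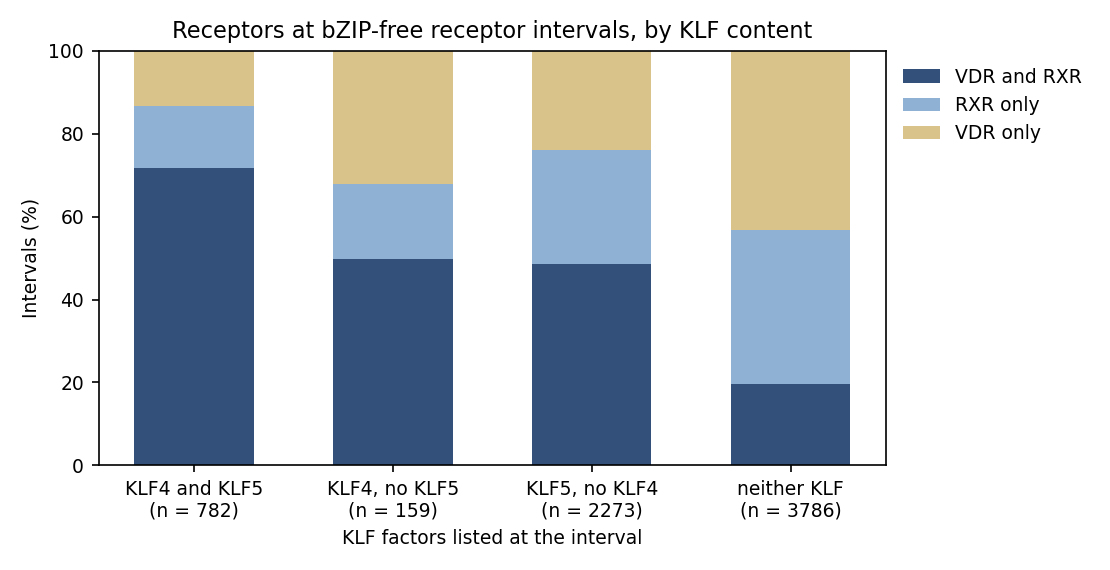
Receptors at bZIP-free intervals with VDR or RXR (y axis, percent of intervals) by the KLF factors listed there (x axis, n below each bar); colours stand for both receptors, RXR only and VDR only. Both receptors take 71.7% of the bar with KLF4 and KLF5 and 19.7% of the bar with neither KLF, and the bars with 1 KLF lie between, at 49.7% and 48.5%.

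The same counts show where KLF4 was found among bZIP-free receptor intervals. Where KLF5 and both receptors were listed, KLF4 was present at 33.7% of 1663 intervals (31.5 to 36.1). With KLF5 and a single receptor, KLF4 was present at 15.7% of 746 intervals with RXR alone (13.1 to 18.5) and at 16.1% of 646 with VDR alone (13.3 to 19.2). Without KLF5 it was present at 9.58% of 825 intervals with both receptors (7.65 to 11.8), at 2.03% of 1430 with RXR alone (1.36 to 2.90) and at 3.02% of 1690 with VDR alone (2.25 to 3.95). The 2 lowest of these 6 shares were those with a lone receptor and no KLF5. The KLF4 list held 5875 intervals and the KLF5 list 17120.

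The next comparison asked how the absence of bZIP factors differed with KLF5. At KLF4-receptor intervals with KLF5, 782 of 4259 (18.4%, 17.2 to 19.6) were free of all 5 bZIP lists, against 159 of 326 (48.8%, 43.2 to 54.3) without KLF5; of all common intervals, 33.8% were listed for no bZIP factor. The difference was -30.4 points (-37.6 to -23.3; lower with KLF5 on 19 of 20 chromosomes). Conversely, KLF5 was listed at 83.1% of the bZIP-free regions and at 95.4% of the 3644 KLF4-receptor intervals with bZIP (94.7 to 96.1), a difference of -12.3 points (-15.4 to -9.26). Both receptors were likewise listed at 68.0% of the bZIP-free regions and at 82.4% of the KLF4-receptor intervals with bZIP (81.1 to 83.6), a difference of -14.4 points (-16.4 to -12.4; lower on 20 of 20 chromosomes). It was -9.37 points without the cJun list in the absence rule (-11.8 to -6.97) and -9.19 points without the last of 4 equal parts of the KLF4 file (-11.5 to -6.89).

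At the other end, all 5 bZIP factors were listed at 12.9% of the KLF4-receptor intervals with KLF5 and at 3.68% of those without KLF5. Each bZIP factor was listed more often with KLF5. JunB was listed at 62.2% of the KLF4-receptor intervals with KLF5 (60.8 to 63.7) and at 33.1% of those without (28.0 to 38.5), and cJun at 49.2% (47.7 to 50.7) and 26.1% (21.4 to 31.2). ATF2 was listed at 43.7% with KLF5 and 21.8% without, FOSL2 at 33.3% and 16.0%, and ATF7 at 33.0% and 14.7%. The 5 differences lay between 17.3 points for FOSL2 (12.1 to 22.6) and 29.1 points for JunB (23.8 to 34.4), and all 5 passed the threshold. As ratios the shares with KLF5 were 1.88-fold (JunB) to 2.24-fold (ATF7) those without. These shares were taken over all KLF4-receptor intervals, also those on no bZIP list (18.4% with KLF5 and 48.8% without). The 5 differences and their ratios therefore partly restate the difference in bZIP absence, and they are not separate results for each factor. Whether each factor differed by KLF5 among only the intervals with bZIP was not tested.

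**Figure D3:**
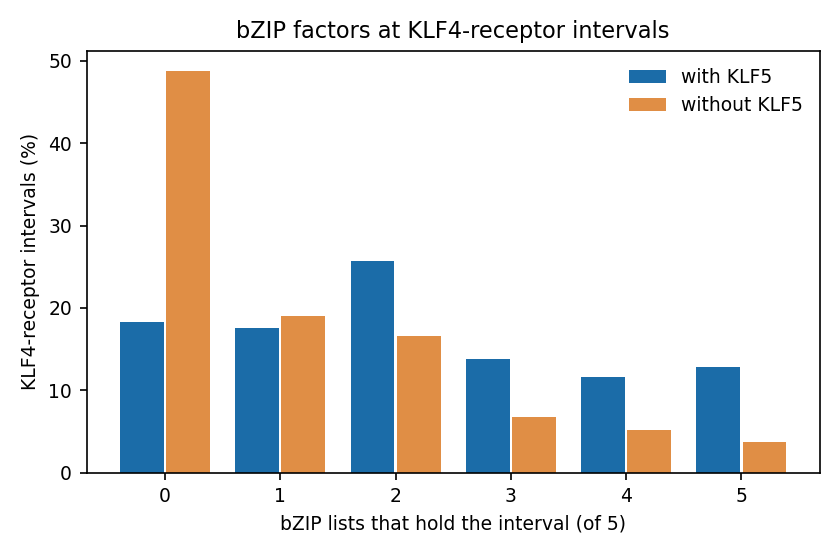
Number of the 5 bZIP lists that hold a KLF4-receptor interval (x axis) as percent of those intervals (y axis), with KLF5 (blue, n = 4259) and without KLF5 (orange, n = 326). Intervals on no bZIP list are 18.4% with KLF5 and 48.8% without; on all 5 they are 12.9% and 3.68%.

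Just outside the rule lay 810 KLF4-receptor intervals with exactly 1 bZIP factor. That factor was JunB at 318 intervals (39.3%), cJun at 216 (26.7%), ATF2 at 193 (23.8%), ATF7 at 50 (6.17%) and FOSL2 at 33 (4.07%). Both receptors were listed at 91.7% of the intervals where cJun was the single bZIP factor, at 78.3% for JunB, 68.0% for ATF7, 57.5% for ATF2 and 48.5% for FOSL2, compared with 68.0% just inside the rule. No test was made of these shares, since the rule places its limit there.

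The number of receptors bore on bZIP absence in a way that differed with KLF5. With KLF5, 16.1% of the intervals with both receptors were free of bZIP (14.9 to 17.3, n = 3491) and 28.8% of those with 1 receptor (25.6 to 32.1, n = 768), a difference of -12.7 points (-15.2 to -10.2; lower on 19 of 20 chromosomes). It was -8.25 points without the cJun list in the absence rule (-11.3 to -5.15) and -19 points without the ATF2 list. In the first of 4 equal parts of the KLF4 file the shares were 9.51% and 26.6%, and in the other 3 parts they lay closer together, at 17.3% and 22.2%, 21.3% and 25.3%, and 30.8% and 36.8%. Without KLF5, 52.3% of the intervals with both receptors were free of bZIP (44.0 to 60.5, n = 151) and 45.7% of those with 1 receptor (38.2 to 53.4, n = 175); the difference of 6.60 points had an interval that held 0 (-6.01 to 19.2). The difference between these differences was -19.3 points (-33.1 to -5.52), and no single chromosome decided its call. It did not pass without the cJun list in the absence rule (-13.1 points, -26.9 to 0.644). By single receptor, the bZIP-free share with KLF5 was 34.3% for VDR alone (29.0 to 40.0) and 25.2% for RXR alone (21.3 to 29.4); without KLF5 it was 45.9% (36.4 to 55.7) and 45.3% (32.8 to 58.3).

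**Figure D4:**
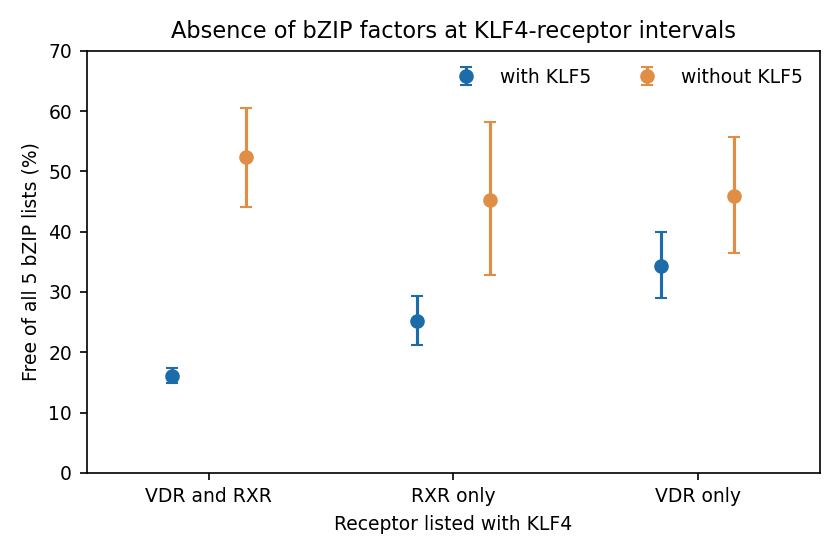
Share of KLF4-receptor intervals on none of the 5 bZIP lists (y axis, percent) by receptor (x axis), with KLF5 (blue) and without KLF5 (orange); bars are 95% exact binomial intervals, which cover counting error only. The points with KLF5 lie at 16.1% to 34.3% and those without at 45.3% to 52.3%; the intervals for VDR only overlap.

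The regions were next placed against their neighbours on the chromosome, by the distance between midpoints. The median distance to the nearest bZIP-listed interval was 9.86 kb, and 476 regions (50.6%, 47.3 to 53.8) had one within 10 kb, close to the 48.4% of all common intervals. Of the KLF4-receptor intervals with bZIP, 56.9% had another bZIP interval within 10 kb (55.3 to 58.5), a difference of -6.30 points for the bZIP-free regions (-10.5 to -2.14; lower on 12 of 20 chromosomes); without the JunB list in the absence rule it was -5.03 points and did not pass, and at 50 kb it was -3.68 points. Relative to receptor intervals without KLF and bZIP, of which 42.2% had a bZIP interval within 10 kb (40.6 to 43.8), they were higher by 8.40 points (4.11 to 12.7; higher on 17 of 20 chromosomes; 5.25 points at 2 kb). The share was 50.2% for KLF5-receptor intervals without KLF4 and bZIP, close to that of the bZIP-free KLF4 regions. Regions with KLF5 (51.2%, 47.6 to 54.7) and without KLF5 (47.8%, 39.8 to 55.9) differed by 3.35 points, with an interval that held 0 (-4.82 to 11.5).

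At shorter range, 126 regions (13.4%, 11.3 to 15.7) had a bZIP-listed interval within 1 kb, and 32 (3.40%, 2.34 to 4.77) overlapped one, close to the 13.6% and 3.51% of all common intervals. JunB was the most frequent neighbour within 1 kb, at 69 regions, followed by ATF2 at 60, cJun at 53, ATF7 at 49 and FOSL2 at 47. In the same order the lists held 10082, 11547, 6175, 7375 and 6284 intervals. Shares over all common intervals were not computed for single bZIP factors, so whether this order is particular to the regions was not tested. Factors missing from a region were also looked for beside it. Among regions without KLF5, 11 of 159 (6.92%, 3.50 to 12.0) had a KLF5 interval within 1 kb (10.6% of all common intervals), 3 overlapped one, and 54 had one within 10 kb. Of the regions with VDR alone, 11 of 155 (7.10%, 3.60 to 12.3) had an RXR interval within 1 kb, against 7.23% of all common intervals. Of those with RXR alone, 12 of 146 (8.22%, 4.32 to 13.9) had a VDR interval within 1 kb, against 6.55% of all. At 1 kb, for all 3 kinds, the share of all intervals lay within the exact interval of the regions.

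Another interval listed for 5 or more factors lay within 10 kb of 235 regions (25.0%, 22.2 to 27.9), against 19.7% of all common intervals. The share was 30.7% for KLF4-receptor intervals with bZIP (29.2 to 32.2), a difference of -5.73 points (-9.30 to -2.17; lower on 14 of 20 chromosomes), which did not pass at 2 kb (-2.31 points). It was 26.3% for regions with KLF5 (23.3 to 29.6) and 18.2% for those without (12.6 to 25.1), and this difference of 8.10 points did not pass the threshold (-0.181 to 16.4). Its call was made when any of 4 single chromosomes was left out, when JunB (9.48 points, 2.84 to 16.1), cJun or ATF2 was dropped from the absence rule, and at neighbour distances of 2 kb and 50 kb.

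The regions rarely lay next to each other. Another region of the same kind was found within 10 kb of 58 of the 941 (6.16%, 4.71 to 7.90), against 3.56% of the other 33783 intervals and 3.63% of all. It was 6.12% for KLF4-receptor intervals with bZIP and 4.75% for KLF5-receptor intervals without KLF4 and bZIP, so such neighbours were about as frequent at KLF4-receptor intervals with bZIP. The difference from all other intervals was 2.61 points (0.618 to 4.60, higher on 12 of 20 chromosomes). It did not pass at a distance of 2 kb (0.44 points, -0.465 to 1.35), and at 50 kb it was 6.4 points (3.69 to 9.11). At 50 kb the share was 17.9% for the regions and 16.3% for KLF4-receptor intervals with bZIP. Within 10 kb, the share was 6.27% with KLF5 (4.67 to 8.20) and 5.66% without KLF5 (2.62 to 10.5). Joining regions within 10 kb gave 883 single regions, 26 pairs and 2 groups of 3. Of the 28 stretches with 2 or 3 regions, 20 held only regions with KLF5, 1 held only regions without KLF5 and 7 held both kinds. KLF5 was listed at 83.1% of all 941 regions, and this split was not tested against that share.

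Both groups of 3 and the first 3 pairs by position are given in mm9 with 1-based coordinates. The group on chromosome 10 spanned 25091738 to 25101307. Its regions started at 25091738, 25092312 and 25100908; all 3 carried KLF5 and VDR, and the middle one lacked RXR. No other common interval lay in that stretch, and the nearest bZIP interval was 11.7 kb from the third region. The group on chromosome 16 spanned 30587644 to 30596689. There the first region, from 30587644, carried VDR alone and no KLF5, while the regions from 30590751 and 30596290 carried KLF5 and both receptors; a bZIP interval lay 0.505 kb from the middle one.

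The 3 pairs were on chromosome 1. In the pair from 54970842 to 54980328, the first region had VDR alone and no KLF5 and the second had KLF5 and both receptors. Both regions of the pair from 113750052 to 113754773 had KLF5 and both receptors, and the nearest bZIP interval was 1370 kb from the first of them. In the pair from 170402619 to 170403599, which spanned 981 bp, both regions had KLF5, the first with RXR alone and the second with VDR alone. Genes and other annotated features at these positions were not analysed here.

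Other regions stood alone, with no common interval of any kind within 10 kb, as did 39.4% of all common intervals. This held for 186 of the 561 regions with KLF5 and both receptors (33.2%), 40 of 117 with KLF5 and RXR (34.2%) and 36 of 104 with KLF5 and VDR (34.6%). Without KLF5 it held for 34 of 79 with both receptors (43.0%), 23 of 51 with VDR (45.1%) and 8 of 29 with RXR (27.6%). The first such region with KLF5 and both receptors was on chromosome 1 from 7099503 to 7099902, where the nearest common interval was 287 kb away. The first with KLF5 and RXR was on chromosome 1 from 38415070 to 38415469, and the first with KLF5 and VDR on chromosome 1 from 45062975 to 45063374. The first without KLF5 were on chromosome 1 from 37258221 to 37258620 with both receptors, on chromosome 1 from 135506689 to 135507088 with VDR, and on chromosome 7 from 77561463 to 77561862 with RXR. The second region of each class, in the same order of 6 classes, started on chromosome 1 at 30986974, 51989616, 81536196, 164031130 and 157404986, and on chromosome 8 at 84300686.

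The regions were found on all 20 chromosomes, from 21 on chromosome 14 to 101 on chromosome 1. As a share of KLF4 intervals they ranged from 11.9% on chromosome 14 (7.50 to 17.6, n = 177) to 27.6% on chromosome X (18.5 to 38.2, n = 87), with 22.3% on chromosome 1 (18.5 to 26.4, n = 453). The exact intervals of chromosomes 14 and X did not overlap, and no test was made over the chromosomes. Regions with KLF5 were the larger part on each of the 20 chromosomes, from 61.9% of 21 regions on chromosome 14 to 94.4% of 36 on chromosome 15.

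The lists carried 1 further property, the order of their lines, which was the same for shared intervals in 36 of 36 pairs of lists and did not follow position. No source used here says what the order stands for. Counted from the top of the KLF4 file as percent of its lines, the 561 regions with KLF5 and both receptors had a median of 45.7% (interquartile range 27.2 to 62.4%). The other 5 classes stood further down, with medians of 72.2% (KLF5 with VDR), 74.7% (KLF5 with RXR), 68.7% (both receptors, no KLF5), 80.6% (VDR, no KLF5) and 77.9% (RXR, no KLF5). KLF4-receptor intervals with bZIP had a median of 36.8% and bZIP-free KLF4 intervals without a receptor one of 86.6%. Among KLF4 intervals on exactly 4 lists, the median was 45.7% for KLF4 with KLF5 and both receptors and 72.7% for the 371 with another set of factors.

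**Figure D5:**
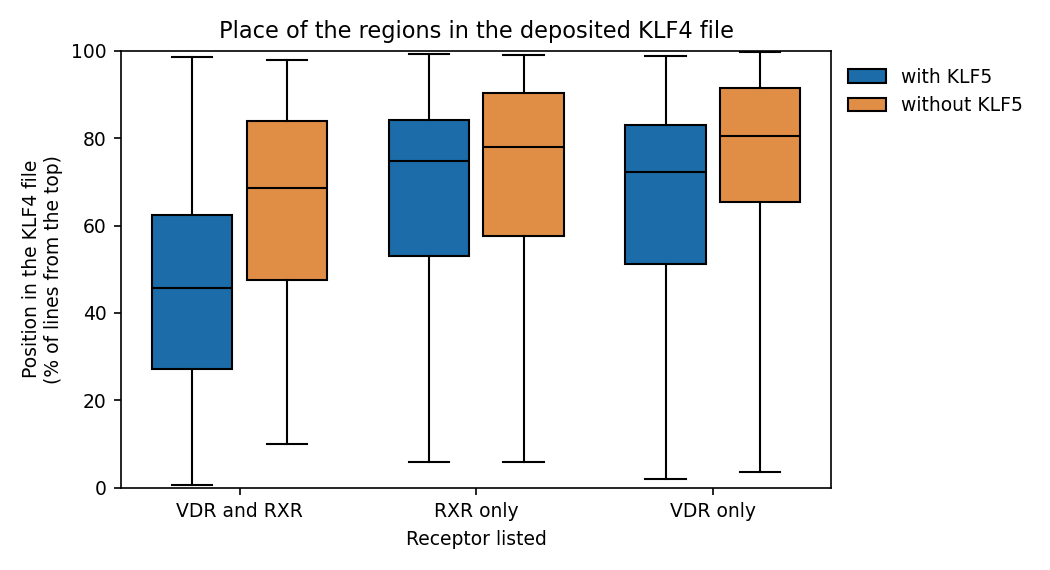
Position of the bZIP-free KLF4-receptor regions in the deposited KLF4 file (y axis, percent of lines from the top) by receptor (x axis), with KLF5 (blue) and without KLF5 (orange); boxes span the interquartile range with the median as a line, and whiskers the whole range. Regions with KLF5 and both receptors have a median of 45.7%, and the other classes medians of 68.7% to 80.6%.

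The order moved with the number of factors: KLF4 intervals on all 9 lists had a median of 19.5% and those on the KLF4 list alone one of 91.5%. The comparisons by KLF5 were repeated in 4 equal parts of the KLF4 file. From the first to the last part, the bZIP-free share of KLF4-receptor intervals with KLF5 was 10.3%, 17.9%, 22.3% and 34.2%, against 34.6% (17.2 to 55.7, n = 26), 53.8%, 42.4% and 53.7% (45.3 to 61.9, n = 149) without KLF5. It was lower with KLF5 in all 4 parts. The share of the bZIP-free regions that carried both receptors was 88.2%, 85.3%, 70.2% and 40.2% with KLF5. Without KLF5 it was 77.8% of only 9 regions, 57.1% of 28, 54.8% of 42 and 41.2% of 80. The exact intervals with and without KLF5 overlapped in the first part (81.8 to 93.0 and 40.0 to 97.2) and in the third (64.1 to 75.9 and 38.7 to 70.2). They also overlapped in the last part (32.7 to 48.2 and 30.4 to 52.8), but not in the second (80.1 to 89.6 and 37.2 to 75.5). With the last part left out, the difference was 21.9 points (12.6 to 31.2). That value pools the remaining parts, so it does not hold the place in the file fixed. The difference in bZIP absence by KLF5 was then -28.3 points (-37.7 to -18.8).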

How the data were processed

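ChIP-seq of 9 transcription factors in induced 3T3-L1 cells was used; the other 21 of 30 labelled samples entered no comparison. For each factor the authors deposited a list of genomic intervals with 3 columns (chromosome, start, end) and no other values. The build mm9 and the tools HOMER, Bowtie and FastQC are named per the submitters' processing notes. Their roles and versions, the peak threshold, the control and any pooling of libraries are not stated there. Every interval was 400 bp long, with midpoints no closer than 201 bp. The lists are subsets of 1 common set, so that a shared interval has the same coordinates in each list, and no interval of the set lacks a factor. Since the lists hold no heights, sites below the authors' threshold cannot be told from unbound sites, and lists of different depth can differ in length: they ran from 5876 intervals (KLF4) to 17120 (KLF5).

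Chromosomes 1 to 19 and X entered, and 4 chromosome Y entries over all lists did not. The regions, groups and comparisons were chosen with earlier results of these data known. Shares carry exact Clopper-Pearson 95% intervals (counting error only). Differences of shares carry a 95% interval from a jackknife over 20 chromosomes (t distribution, 19 degrees of freedom). A difference passed where the Benjamini-Hochberg adjusted value over 22 differences (12 set with the design, 10 added after the files were seen) was under 0.05, as for 17 of them; the 5 differences for single bZIP factors were adjusted apart. These values compare chromosomes of the same libraries, so they are not printed. Some of the 22 differences read the same counts in both directions, such as bZIP absence by KLF5 and KLF5 by bZIP absence. Others share intervals, so the 17 are not separate results. Each factor has 1 library, and spread between cultures or antibodies is in no interval given. Neighbours were other common intervals within 10 kb. Named regions are the 5 stretches with most regions within 10 kb of each other, and the first 2 regions of each class with no common interval within 10 kb. Alternatives changed the bZIP absence rule, the chromosomes, the overlap and the neighbour distance; a stricter peak threshold could not be tried without heights. The jackknife of a difference of shares was tested on simulated data, and the neighbour distance on a small known set. The other calculations, among them the difference between differences, were not part of that test. Python 3.11.15, numpy 2.4.6, pandas 2.3.3, scipy 1.17.1 and matplotlib 3.10.9 were used.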

Additional observations from a re-analysis of the deposited data

Results flagged for a closer look

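The difference in bZIP absence between both receptors and 1 receptor was itself different between KLF4 intervals with and without KLF5: the difference between the differences was -19.3 percentage points (95% jackknife interval over 20 chromosomes -33.1 to -5.52). With KLF5, the bZIP-free share with both receptors minus that with 1 was -12.7 points; without KLF5 it was 6.60 points, with an interval that held 0. In the first of 4 equal parts of the KLF4 file, the bZIP-free share with KLF5 was 9.51% of 1335 with both receptors and 26.6% of 64 with 1. It was 17.3% and 22.2% in the second part, 21.3% and 25.3% in the third, and 30.8% and 36.8% in the last, so that the gap was smaller in these 3 parts than in the first. Without KLF5 it was 58.3% of 12 and 14.3% of 14 in the first part, 57.1% and 50% in the second, 43.4% and 41.3% in the third, and 56.9% and 51.6% in the last.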

How the results depend on the processing

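Of 278 recomputed values for 24 results under 13 settings, 259 were counted as kept, which for a difference means the same direction and side of the threshold. Of the rest, 7 no longer passed, 6 newly passed, 4 changed sign and 2 moved. The number of regions and their KLF5 share have no threshold, and all their values but the 2 that moved are among the 259. The number of regions was 941 and ranged from 697 to 1259. Counting an overlap of 200 bp as the same site changed no listing, since midpoints lay at least 201 bp apart. The values of that setting could not differ, and they are also among the 259. Dropping the JunB list from the absence rule moved the KLF5 share to 85.46%, and leaving out the last of 4 equal parts of the KLF4 file, chosen after seeing the data, moved it to 88.67%; that setting leaves intervals without KLF4 untouched. The excess of KLF5 at RXR-only over VDR-only regions did not pass without regions overlapping a bZIP interval (12.4 points), without those within 1 kb of one (11.1) or without that part (7.36). The excess of both receptors over RXR only passed without the cJun list (10.1 points), and the difference between differences did not (-13.1). The difference in neighbouring regions within 10 kb between regions with and without KLF5, 0.606 points and not called, changed sign without chromosome 10 (-0.226), without the cJun (-2.08) or JunB list (-1.2) in the absence rule and without that part (-2.09). The causes of these changes were not tested. Leaving out single chromosomes changed the calls of 3 results, those of RXR only against VDR only (13 chromosomes), of both receptors against RXR only (2) and of intervals of 5 or more factors by KLF5 (4). The planned sequence and gene distance alternatives were not run, since no genome of the build was used, and a stricter peak threshold needs heights. The unknown depth limits every statement on absence. No paired analysis was possible because each factor had 1 library.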
